A study of Sciaenops ocellatus with 24 samples.

Results

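The miRNAs described here are 3 names that the count tables of this red drum (Sciaenops ocellatus) series list: aca-miR-34b-5p, ola-miR-21 and ola-miR-210-3p. They were chosen by name, for what these miRNAs are known for, but with earlier results of these data known. They are 3 of the 260 names listed in at least 1 of the 6 tables. aca-miR-34b-5p and ola-miR-21 stand in 6 of 6 tables, whereas ola-miR-210-3p stands in the 3 slick oil tables alone. The prefixes give the species of the reference entry (aca for green anole, ola for medaka), so each name below means the red drum reads assigned to that entry. Whether the arm in a name is right could not be checked. Their sequences were not used here.

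Whole red drum larvae were pooled and taken 48 hours post fertilization, in 2 exposure experiments with Deepwater Horizon oil. Slick oil, weathered at the sea surface and labelled OFS, was given as 1.25%, 2.50% or 5.00% by volume of a high-energy water accommodated fraction (oil blended into seawater). Source oil, a surrogate taken from a pipeline and labelled MASS, was given in the same form as 0.135%, 0.27% or 0.54%, and each oil had its own unexposed control. All embryos, those of the controls included, had been treated with formalin before the exposure. The 24 libraries form 8 groups of 3, and the labels do not say whether the 3 are of separate spawns or tanks. The spread behind every p-value is therefore that between these libraries and may be technical.

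miRNAs are short RNAs that bind messenger RNAs and lower their translation or stability. In mammals, transcription of the miR-34 family is raised by the DNA damage factor p53, and miR-34b and miR-34c are also made in cells that carry many cilia. miR-21 is an abundant miRNA of many vertebrate cells, known from mammals for its rise in injured and inflamed tissue. miR-210 is the best known miRNA target of the hypoxia-inducible factors, also from work in mammals. The comparisons ask how each name's level in oil-exposed larvae relates to its level in the controls of the same experiment. In whole larvae, fewer cells of a type and less RNA per cell cannot be told apart.

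Between 2820454 and 9741582 counts were assigned per library, with the lowest totals in slick 5.00% (2820454 to 4346165, against 8000563 to 8535913 in the controls of that comparison). A total covers the names listed for a comparison, so the total of a control can differ between comparisons. Control library 1 of each oil stood apart: no listed name was at 0 in it, whereas 39 to 61 names were at 0 in each of the other libraries. Results without control 1 are given below for that reason. Markers of 6 tissue groups were counted in every library, from at least 25.7% of counts for the nervous system list to at least 0.0133% for the blood list. Among names of the same miRNA numbers, the tables list 1 more, oha-miR-210-5p, in the source oil tables alone. Levels are CPM (counts scaled to a common library total) after TMM scaling, over names counted in every library of the 12 of an oil. Tests were edgeR's quasi-likelihood test with Benjamini-Hochberg adjustment over the whole table, where an adjusted p under 0.05 is a call and a fold change is given as log2 ± its standard error. Unless all names are mentioned, a test ran over the names counted in every library of the comparison.

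In larvae exposed to source oil the mean level of aca-miR-34b-5p was larger at each higher concentration. It rose at 0.27% and at 0.54% (log2 fold change 1.00 at 0.54%), and did not pass the test at 0.135%. No comparison with slick oil called it. Across the 24 libraries it had 51 to 629 counts and stood as low as rank 163 among the listed names of a library, so it is one of the less abundant miRNAs tested.

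In the source oil experiment the deposited counts of aca-miR-34b-5p were 295, 319 and 263 at 0.135%, 336, 389 and 449 at 0.27%, and 629, 461 and 410 at 0.54%, and the controls averaged 186 counts. The levels in CPM were 43.5, 37.3 and 31.9 in the controls, 47.9, 54.3 and 52.4 at 0.135%, 50.4, 69.5 and 75.4 at 0.27%, and 95.4, 83.4 and 55.3 at 0.54%. Every exposed library lay above every control library. How many other names do so across all exposed libraries was not counted. In the single comparisons, each scaled within its own table, 18.4% of names lay wholly above the controls at 0.135%, 20% at 0.27% and 30.3% at 0.54%. Library 1 was the lowest of its group at 0.27% and library 3 the lowest at 0.54%, so these groups overlap each other. The means were 37.6 ± 5.79 CPM in controls, 51.5 ± 3.29 at 0.135%, 65.1 ± 13.1 at 0.27% and 78.0 ± 20.5 at 0.54% (SD, n = 3 each). At 0.54% the coefficient of variation between libraries was 26.3%, against 4.47% from counting alone. The spread within that group is thus larger than counting error.

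**Figure D1:**
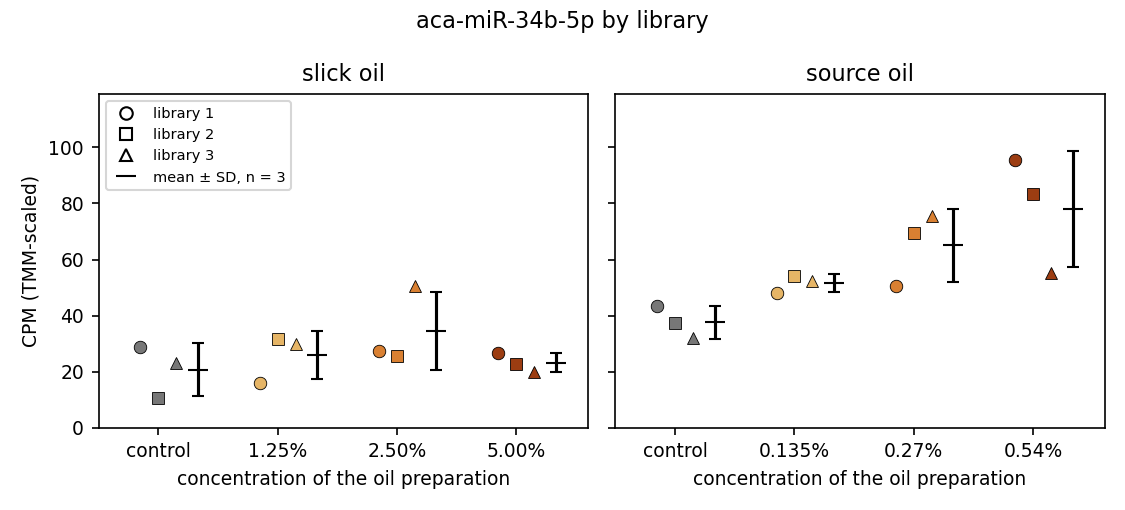
Level of aca-miR-34b-5p (vertical axis, TMM-scaled CPM) by concentration of the oil preparation (horizontal axis), slick oil on the left and source oil on the right; each symbol is 1 library and the bar is mean ± SD of 3. All 9 source-exposed libraries lie above the 3 source controls, whereas the slick groups overlap.

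At 0.135% source oil, aca-miR-34b-5p was at 47.1 ± 2.72 CPM, against 34.3 ± 5.70 CPM in controls, scaled within those 6 libraries (SD, n = 3 each). The log2 fold change was 0.46 ± 0.14 (95% interval 0.14 to 0.77, edgeR adjusted p = 0.104). The groups did not overlap, and 18.4% of the 114 names lay wholly above their controls. At this concentration edgeR called 0 names (0%), with 27 at an unadjusted p under 0.05, and DESeq2 called 13, aca-miR-34b-5p among them (log2 0.44, adjusted p = 0.0468). Without control 1, whose count is the highest of the controls, edgeR gave 0.60 with an adjusted p of 0.0308 and called 9 names. Over all 156 names, of which 1.28% were called, the value was 0.47 ± 0.14 (95% interval 0.11 to 0.83, edgeR adjusted p = 0.191).

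At 0.27% source oil, it was at 62.4 ± 13.0 CPM, against 36.2 ± 5.58 CPM in controls (SD, n = 3 each). The log2 fold change of aca-miR-34b-5p was 0.78 ± 0.19 (95% interval 0.34 to 1.23, edgeR adjusted p = 0.0277), with 23.5% of 115 names called in either direction, 9.57% called higher and 20% lying wholly above the controls. These are 11 names higher and 16 lower, against 31 higher and 2 lower with library totals in place of TMM. It held rank 3 by fold change, and rank 4 at 0.135%. Without control 1 it was 0.90 (edgeR adjusted p = 0.0423). The call was lost without some other libraries: edgeR's adjusted p was 0.105 without control 2, 0.107 without control 3, 0.0749 without exposed library 2 and 0.0859 without exposed library 3. Over all 158 names, of which 1.27% were called, the fold change was 0.79 ± 0.22 with an adjusted p of 0.114 by edgeR.

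At 0.54% source oil, aca-miR-34b-5p was at 69.0 ± 17.0 CPM, against 34.5 ± 5.27 CPM in controls (SD, n = 3 each). The log2 fold change was 1.00 ± 0.21 (95% interval 0.53 to 1.47, edgeR adjusted p = 0.0076). In that comparison 47 of 119 names were called (39.5%), 21 of them higher (17.6%) and 26 lower, against 43 higher and 14 lower with library totals, and the exposed libraries of 30.3% of names lay wholly above the controls. The miRNA again held rank 3 by fold change, of the 119 names. Leaving out any 1 of the 6 libraries kept the call (log2 0.85 to 1.20). Without control 1 it was 1.11 (edgeR adjusted p = 0.00799). Over all 153 names, of which 14.4% were called, the fold change was 0.98 ± 0.24 and edgeR's adjusted p was 0.0606. The 3 source comparisons share their controls, so their values are not independent of each other.

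The authors' deposited table for 0.135% gives aca-miR-34b-5p 0.43 as log2 fold change, with 0.0165 as adjusted p. In the authors' deposited table for 0.27% these values are 0.72 and 0.00313. At 0.54% the authors' deposited table lists normalised means of 433 in exposed and 216 in control larvae, with 0.95 as log2 fold change and 0.000427 as adjusted p. Their adjusted p was under 0.05 for 22 of 195 names at 0.135%, 33 of 190 at 0.27% and 63 of 198 at 0.54%. By the authors' p-value aca-miR-34b-5p held rank 17, 26 and 27 at these concentrations.

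A slope on concentration, fitted over all 12 source libraries, gave aca-miR-34b-5p a log2 change of 1.00 ± 0.20 over the range up to 0.54% (95% interval 0.59 to 1.42, edgeR adjusted p = 0.000946). It was larger for 1 other name of the 109 fitted, in an experiment where 57 of the 109 had a called slope (52.3%) and 30 rose (27.5%). It was called in each of the 12 fits without 1 library (0.89 to 1.24), and over all 167 names, where 29.3% were called (1.02 ± 0.23, edgeR adjusted p = 0.00939). Without control 1 it was 1.03 (edgeR adjusted p = 0.00247). Without the controls the slope was 0.73 with an adjusted p of 0.0732 by edgeR.

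In the same 12-library fit the levels of aca-miR-34b-5p were ordered as the concentrations, but no difference between neighbouring groups passed the adjusted test. The log2 difference was 0.46 ± 0.21 for 0.135% over control (adjusted p = 0.296), 0.34 ± 0.20 for 0.27% over 0.135% (0.345) and 0.26 ± 0.20 for 0.54% over 0.27% (0.82), all by edgeR. Differences between groups farther apart did pass it. 0.54% exceeded 0.135% by 0.60 ± 0.20 (edgeR adjusted p = 0.0436, with 22.9% of names called), 0.27% exceeded control by 0.79 ± 0.20 (0.0153, 26.6% called) and 0.54% exceeded control by 1.06 ± 0.20 (0.00158, 50.5% called). Over all names the difference between 0.54% and 0.135% had an adjusted p of 0.146 by edgeR.

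In the slick oil experiment the counts of aca-miR-34b-5p were 170, 79 and 200 in controls, 94, 231 and 117 at 1.25%, 179, 96 and 289 at 2.50%, and 65, 88 and 51 at 5.00%. In CPM these are 28.8, 10.5 and 23.04 in controls, 16.1, 31.8 and 29.9 at 1.25%, 27.2, 25.4 and 50.4 at 2.50%, and 26.7, 22.8 and 20.1 at 5.00%. The low library was control 2 and the high one was library 3 at 2.50%, and every exposed group overlapped the controls. Group means ran from 20.8 ± 9.36 CPM in controls, through 25.97 ± 8.57 at 1.25% and 34.4 ± 13.9 at 2.50%, to 23.2 ± 3.32 at 5.00% (SD, n = 3 each). The slick controls varied by 45.1% between libraries, against 8.17% from counting. At 5.00%, with the lowest depth, the spread of 14.3% was close to the 12.1% that counting gives.

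For slick 1.25% over control the log2 fold change of aca-miR-34b-5p was 0.30 ± 0.38 (95% interval -0.57 to 1.16, edgeR adjusted p = 0.913), and at 2.50% it was 0.66 ± 0.43 (-0.33 to 1.65, 0.707). With same-numbered libraries taken as pairs at 2.50%, it was 0.72 ± 0.36 (edgeR adjusted p = 0.577). At 5.00% it was 0.12 ± 0.34 (-0.65 to 0.89, edgeR adjusted p = 0.862), where 6 of 109 names were called (5.5%), 3 in each direction, and over all 149 names 2.01%. With library totals 0 were called higher and 3 lower there. At both lower concentrations edgeR called 0 of 117 names (0%). The unadjusted p was under 0.05 for 3 names at 1.25% and 8 at 2.50%, and DESeq2 called 1 name at 1.25% and 0 at 2.50%. Over all names edgeR called 0.629% of 159 names at 1.25% and 0 of 156 names at 2.50%, with 4 at an unadjusted p under 0.05. These intervals are wide enough to hold the changes measured with source oil at 0.135%. Without control 1 the values were 0.59 at 1.25%, 0.97 at 2.50% and 0.40 at 5.00%, and none was called by edgeR. The sign turned without control 2, to -0.04 at 1.25% and -0.17 at 5.00%. The slope on slick concentration was 0.18 ± 0.41 (edgeR adjusted p = 0.911), where 1% of 100 names were called. The mean levels are in the order control, 5.00%, 1.25% and 2.50%, and no neighbours in that order passed the adjusted test (edgeR adjusted p from 0.728 to 0.952).

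ola-miR-21 was one of the most abundant names in every library, with log2 fold changes between -0.06 and 0.42. It held rank 3 to 6 among the listed names and took 3.56% to 7.70% of a library's counts. Its highest mean level within each oil was at the highest concentration. None of the 6 comparisons within a table called it, while the slope on source oil concentration did.

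In the source oil experiment the counts of ola-miR-21 were 334445, 385676 and 351718 in controls, 466394, 473148 and 394065 at 0.135%, 520553, 406573 and 465692 at 0.27%, and 522385, 517946 and 712800 at 0.54%. Its scaled levels were 65821, 77790 and 73882 CPM in controls, 75726, 80547 and 78565 CPM at 0.135%, 78077, 72668 and 78190 CPM at 0.27%, and 79190, 93685 and 96199 CPM at 0.54%. On this scale the 0.54% libraries lie above the controls, though library 1 by little (79190 against 77790 CPM), and the lower concentrations overlap them. How many other names do so on this scale was not counted. Scaled within the comparison at 0.54% alone, ola-miR-21 overlapped its controls, whereas 30.3% of the 119 names lay wholly above theirs. The means were 72498 ± 6103 CPM in controls, 78279 ± 2423 at 0.135%, 76311 ± 3156 at 0.27% and 89691 ± 9180 at 0.54% (SD, n = 3 each). The coefficient of variation between libraries was 3.10% to 10.2%, against 0.131% to 0.167% from counting.

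**Figure D2:**
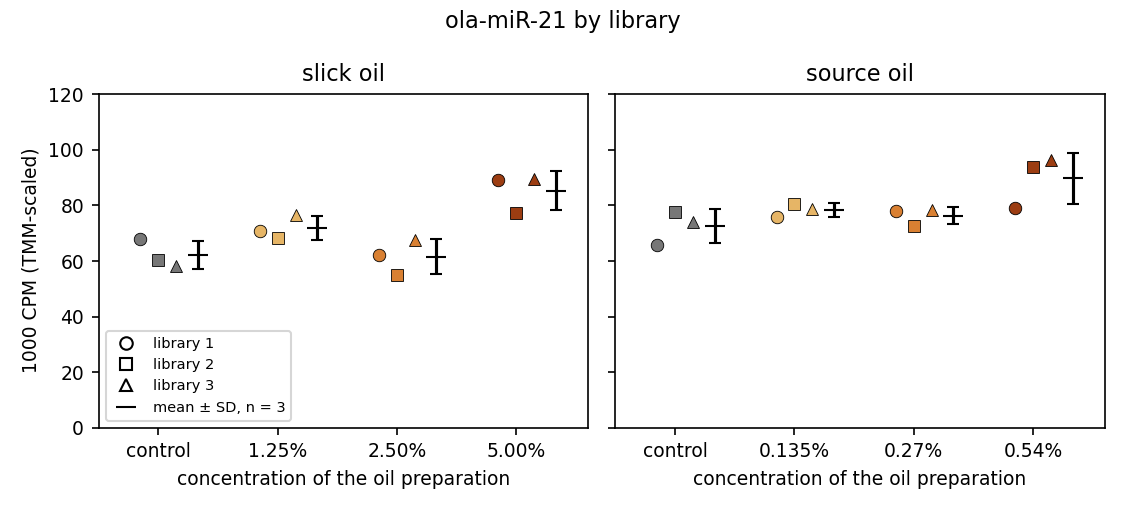
Level of ola-miR-21 (vertical axis, TMM-scaled CPM divided by 1000) by concentration of the oil preparation (horizontal axis), slick oil on the left and source oil on the right; each symbol is 1 library and the bar is mean ± SD of 3. The 5.00% libraries are the highest slick points, and libraries 2 and 3 at 0.54% are the highest source points.

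At 0.135% source oil the log2 fold change of ola-miR-21 was 0.12 ± 0.06 (95% interval -0.03 to 0.26, edgeR adjusted p = 0.317), and the exposed libraries lay above the controls when scaled within that table, as did those of 18.4% of the 114 names. At 0.27% it was 0.06 ± 0.09 (-0.14 to 0.26, edgeR adjusted p = 0.637), with overlap.

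At 0.54% source oil, ola-miR-21 was at 79732 ± 9400 CPM, against 66466 ± 4833 CPM in controls, scaled within those 6 libraries, where the groups overlapped (SD, n = 3 each). The log2 fold change was 0.26 ± 0.11 (95% interval 0.01 to 0.51, edgeR adjusted p = 0.0815). This result depends on the fit. In the 12-library fit, where 50.5% of 109 names were called, the same difference was 0.31 ± 0.09 with an adjusted p of 0.0148 by edgeR. With library totals in place of TMM, where 43 of the 119 names were called higher and 14 lower, it was 0.49 with an adjusted p of 0.00623 by edgeR. Library totals move the median of all 119 names to 0.27, against 0.03 under TMM, so relative to the median the difference was about the same on either scale. Without control 1 it was 0.18 (edgeR adjusted p = 0.258). The authors' deposited table lists 0.26 with an adjusted p of 0.0697 here.

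The slope of ola-miR-21 on source concentration was 0.29 ± 0.09 over the range up to 0.54% (95% interval 0.10 to 0.48, edgeR adjusted p = 0.0147), which ranks 29th of the 109 names by size, where 52.3% had a called slope and 27.5% rose. Without library 2 at 0.54% edgeR's adjusted p was 0.0561, without library 3 at 0.54% it was 0.0619, and without control 1 it was 0.0471. Without any controls the slope was 0.28 with an adjusted p of 0.127. The order of the means was control, 0.27%, 0.135% and 0.54%, and no neighbours in it passed the adjusted test.

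In the slick oil experiment ola-miR-21 had 401327, 454981 and 504892 counts in controls, 412472, 495135 and 298672 at 1.25%, 407648, 207762 and 388318 at 2.50%, and 217214, 297347 and 227416 at 5.00%. The libraries at 5.00% also have the lowest totals. Scaled, the levels were 67924, 60292 and 58158 CPM in controls, 70776, 68228 and 76437 CPM at 1.25%, 62026, 55075 and 67729 CPM at 2.50%, and 89148, 77129 and 89448 CPM at 5.00%. On this scale all 3 libraries at 5.00% lay above every other slick library, the lowest by little (77129 against 76437 CPM). How many other names show this order was not counted. As CPM of the library total the 5.00% libraries overlapped the lower concentrations. They were then at 77014, 68416 and 65907 CPM, against 75160 CPM in library 3 at 2.50%. The means were 62124 ± 5134 CPM in controls, 71814 ± 4202 at 1.25%, 61610 ± 6337 at 2.50% and 85242 ± 7028 at 5.00% (SD, n = 3 each). Control 1 of ola-miR-21 is 401327 in the tables of the lower concentrations and 401347 in the 5.00% table, and the 12-library levels use the first.

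At 1.25% slick oil the log2 fold change of ola-miR-21 was 0.18 ± 0.17 (95% interval -0.20 to 0.56, edgeR adjusted p = 0.913), and at 2.50% it was -0.06 ± 0.22 (-0.58 to 0.46, 0.95). With same-numbered libraries taken as pairs at 2.50%, it was -0.06 ± 0.30 (edgeR adjusted p = 0.932). The sign at 2.50% turned with library totals (0.021), over all names (0.012) and without control 1 (0.010).

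At 5.00% slick oil, ola-miR-21 was at 80963 ± 6289 CPM, against 60636 ± 3604 CPM in controls within those 6 libraries, with no overlap (SD, n = 3 each). Among the 109 names 12.8% lay wholly above their controls. The log2 fold change was 0.42 ± 0.15 (95% interval 0.08 to 0.76, edgeR adjusted p = 0.152), and over all names 0.45 ± 0.10 (0.110). Without control 1 the value was 0.47 (edgeR adjusted p = 0.212). The authors' deposited table gives 0.41 with an adjusted p of 0.00341 for this comparison, among 21 of 190 names with an adjusted p under 0.05.

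The slope of ola-miR-21 on slick concentration was 0.40 ± 0.19 over the range up to 5.00% (95% interval 0.00 to 0.80, edgeR adjusted p = 0.449), where 0.952% of 105 names were called. Without control 1 it was 0.56 (edgeR adjusted p = 0.529). The levels are in the order 2.50%, control, 1.25% and 5.00%, without a passing difference between neighbours. The difference between 5.00% and 2.50%, the ends of that order, was 0.47 ± 0.19 (edgeR adjusted p = 0.201).

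**Figure D3:**
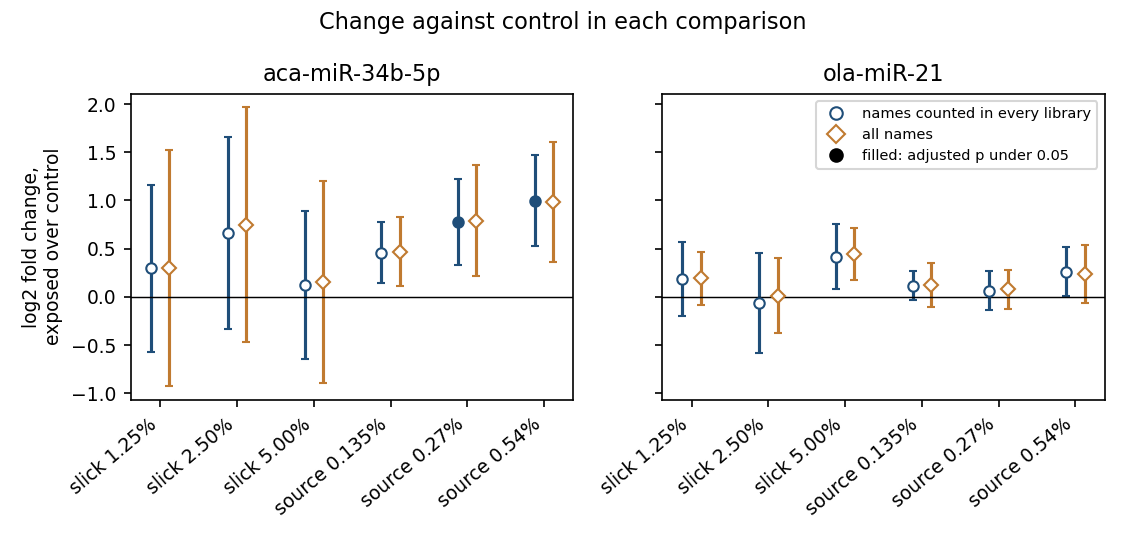
Log2 fold change of exposed over control larvae (vertical axis) for aca-miR-34b-5p and ola-miR-21 in the 6 comparisons (horizontal axis), with bars for 95% intervals, in the fit over names counted in every library (circles) and over all names (diamonds). The filled symbols, calls at an adjusted p under 0.05, are aca-miR-34b-5p at 0.27% and 0.54% source oil over names counted in every library.

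ola-miR-210-3p, named for the hypoxia miRNA, was at 0 in 9 of the 12 slick libraries. It had 169, 0 and 165 counts in controls, 105, 0 and 0 at 1.25%, and 0 in each library at 2.50% and at 5.00%. It was thus counted in 1 of 9 exposed libraries and in 2 of 3 controls, and control 2 was at 0 like most exposed libraries. Of the 2 controls that counted it, 1 is control 1, in which no listed name was at 0. Each library in which ola-miR-210-3p was counted held over 100 counts.

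At the level of control 1 in the same table, 18.7 CPM of the library total at 1.25% and 2.50% and 20.8 CPM at 5.00%, the libraries at 0 would have given 58.6 to 174 counts. The limit that a count of 0 allows, 3 counts, is 0.322 to 1.06 CPM in them, for counting error only. Of the names listed in all 3 slick tables, 85 (44.3%) were at 0 in at least 1 library, 62 of these (32.3% of the names) in at least 1 control, and 25 (13.0%) were at 0 in 9 or more of the 12. Every 2.50% and every 5.00% library was at 0 for 15 names (7.81%), ola-miR-210-3p included, and its exact pattern over the 12 libraries was shared by no other name. These 15 names had from 1 (gga-miR-365b-5p) to 159182 counts (ipu-miR-216b) in control 1. ipu-miR-216b was at 0 in controls 2 and 3 as well. ssc-miR-129a-5p had 44977 counts in control 1, 0 in control 2 and 45376 in control 3. Zeros thus also occur for names with large counts in another library of the same group, and the limit for counting error does not cover such zeros. Whether a 0 bounds the level of ola-miR-210-3p was not tested.

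Within single tables, ola-miR-210-3p could be tested at 1.25% alone and over all names, where edgeR gave an adjusted p of 0.988 for a log2 fold change of -1.40 ± 2.83 (95% interval -8.73 to 5.93). At 2.50% and 5.00%, and at 1.25% without control 1, only 2 libraries of a table reach 10 counts, so it did not pass the filter there. With 1 control at 0 as well, the difference is within the spread between the controls. In the fit over the 12 slick libraries and all names, edgeR gave an adjusted p of 0.585 for 2.50% over control, 0.632 for 5.00% over control and 0.428 for the slope (unadjusted p = 0.00756). No fold change is given for these, since against groups wholly at 0 it depends on the prior count. The authors' deposited table for 5.00% lists a mean of 0 in exposed and 73.6 in control larvae with an adjusted p of 0.761.

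The source oil tables used here do not list ola-miR-210-3p, and the other name of that number, oha-miR-210-5p, appears there in its place. Whether the 2 names count reads of the same red drum locus was not tested. oha-miR-210-5p had 290, 363 and 265 counts at 0.135%, 329, 0 and 417 at 0.27%, and 438, 0 and 0 at 0.54%, and 188 in the lowest control. As CPM of the library total, its values were 20.5, 26.7 and 32.8 CPM in controls, 33.1, 47.0 and 36.1 at 0.135%, 37.5, 0 and 60.9 at 0.27%, and 58.6, 0 and 0 at 0.54%. Of the 9 exposed libraries 3 were at 0, and no control was. In control 1, however, no listed name was at 0, whereas 21.1% to 26.6% of listed names were in each other source library. For oha-miR-210-5p the comparison at 0.135%, the one where it has no zeros, gave 0.41 ± 0.15 (95% interval 0.07 to 0.75, edgeR adjusted p = 0.133). At 0.27% it was -0.03 ± 1.91 and at 0.54% -0.95 ± 2.61 over all names (edgeR adjusted p = 0.994 and 0.91).

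**Figure D4:**
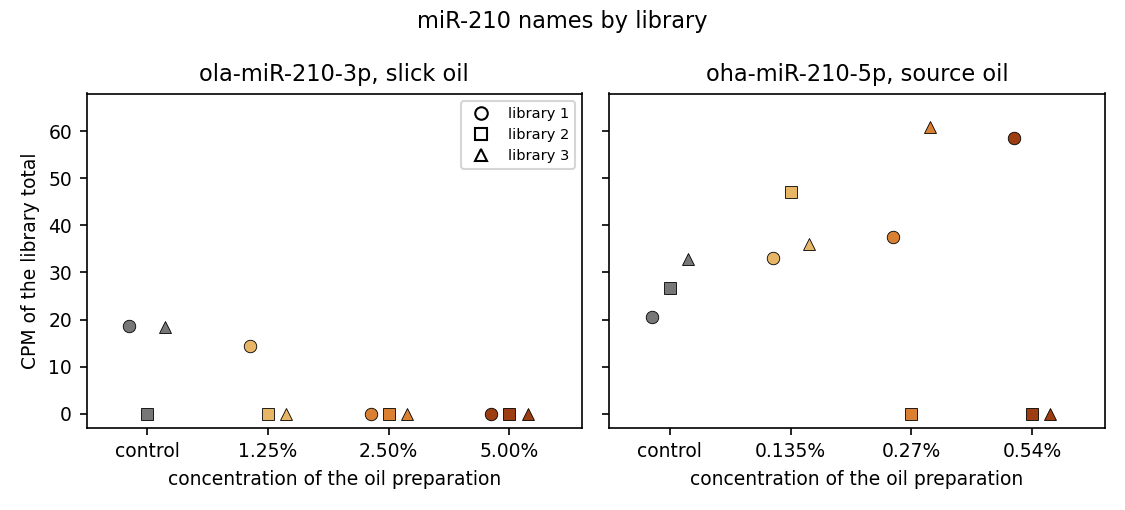
CPM of the library total (vertical axis) of ola-miR-210-3p in the slick libraries and of oha-miR-210-5p in the source libraries, by concentration of the oil preparation (horizontal axis), with 1 symbol per library. Symbols lie either at 0 or above 14 CPM, and all libraries at 2.50% and 5.00% slick oil are at 0.

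The difference between the oils in the response of aca-miR-34b-5p did not pass the test at any rank of concentration. Concentrations differ between the oils, so only their ranks were matched. Slick minus source response was -0.16 ± 0.44 at the lowest concentration (edgeR adjusted p = 0.958), -0.09 ± 0.44 at the middle one (0.94) and -0.86 ± 0.45 at the highest (95% interval -1.79 to 0.08, 0.241, where edgeR called 0% of 96 names, with 19 at an unadjusted p under 0.05). For ola-miR-21 the same differences, from the lowest concentration up, were 0.05 ± 0.18 (0.962), -0.08 ± 0.18 (0.792) and 0.21 ± 0.18 (0.471), all by edgeR. The call of aca-miR-34b-5p with source oil alone is therefore not shown to be a difference between the oils.

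The controls of the 2 experiments were compared as well. aca-miR-34b-5p was at 20.8 ± 9.36 CPM in slick controls and at 37.6 ± 5.79 CPM in source controls, each scaled with the libraries of its own oil (SD, n = 3 each). Fitted over all 24 libraries, the slick control over the source control gave -0.63 ± 0.32 (95% interval -1.28 to 0.03, edgeR adjusted p = 0.138), where 31.2% of names were called. ola-miR-21 gave 0.03 ± 0.13 (95% interval -0.24 to 0.30, edgeR adjusted p = 0.84). Neither control group was given oil, so the comparison of controls is one between the experiments. In the slick minus source responses, oil and experiment cannot be told apart.

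**Figure D5:**
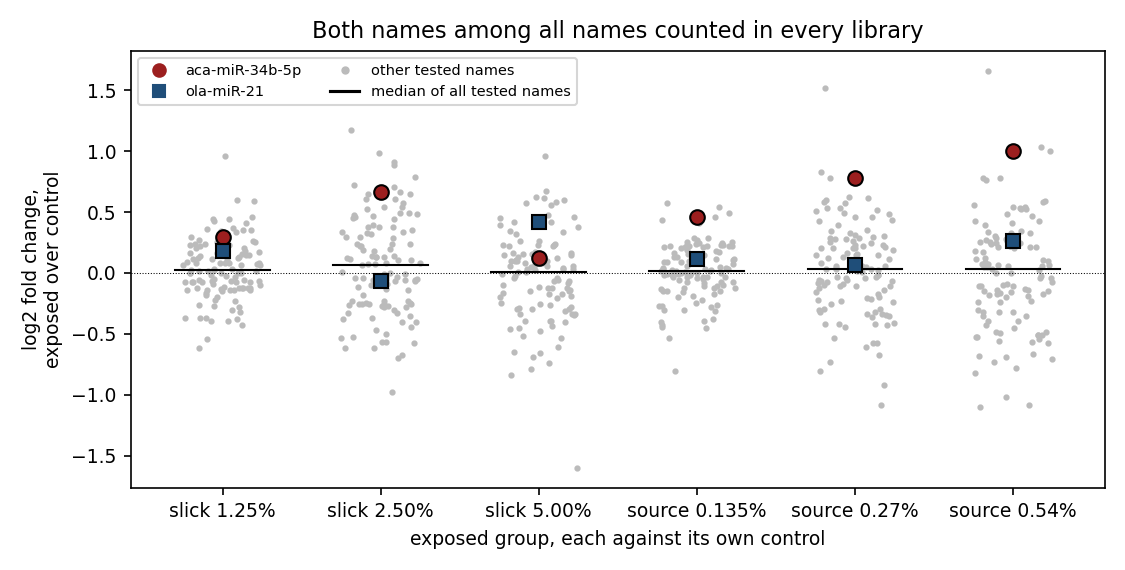
Log2 fold change of exposed over control larvae (vertical axis) of every name counted in all libraries of a comparison (grey points, bar at the median) for the 6 comparisons (horizontal axis), with aca-miR-34b-5p in red and ola-miR-21 in blue. aca-miR-34b-5p is among the 4 highest names in each source oil comparison and has rank 15, 9 and 36 at 1.25%, 2.50% and 5.00% slick oil.

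Within a library, the ratio of aca-miR-34b-5p to ola-miR-21 does not depend on the scaling. In source oil it was 0.661, 0.480 and 0.432 counts per 1000 counts of ola-miR-21 in controls, 0.633, 0.674 and 0.667 at 0.135%, 0.646, 0.957 and 0.964 at 0.27%, and 1.20, 0.890 and 0.575 at 0.54%. Every exposed group thus overlaps control 1, unlike the levels themselves, and 0.54% has the widest range. All exposed source libraries, from 0.575 up, lie above controls 2 and 3 (0.480 and 0.432). How many other names do so relative to ola-miR-21 was not counted. In slick oil the mean ratio was 0.331 ± 0.137 in controls, 0.362 ± 0.122 at 1.25%, 0.549 ± 0.170 at 2.50% and 0.273 ± 0.0424 at 5.00% (SD, n = 3 each). The correlation of the pair was r = 0.113 over 24 libraries after removing each oil's mean, a description over libraries that share groups.

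The names whose levels were most like aca-miR-34b-5p over the 24 libraries were ccr-miR-454b (r = 0.744), ipu-miR-107b (0.742) and dre-miR-93 (0.687), against a median r of 0.0204 over 104 names. This is Pearson's r of log2(CPM + 1) after subtracting each oil's mean, with libraries that share depth and groups, and is given as a description. In source oil the 3 correlations were 0.908, 0.880 and 0.850, and in slick oil 0.696, 0.705 and 0.669. Those most like ola-miR-21 were tgu-miR-217-5p (r = 0.652), ssa-miR-8159-5p (0.640) and oar-miR-23b (0.607), against a median of 0.0438. Their correlations were 0.727, 0.696 and 0.697 in slick oil, and lower in source oil, at 0.464, 0.461 and 0.291.

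Among 12 listed names of miRNAs known in mammals to respond to p53 (the miR-34, miR-192, miR-194, miR-107, miR-145, miR-15 and miR-16 numbers and their kin), aca-miR-34b-5p was the highest of the called ones. At 0.54% source oil 6 could be tested over the names counted in every library, and 2 rose and 1 fell, against 17.6% higher and 21.8% lower of all 119 names tested. ipu-miR-107b rose by 0.59 ± 0.16 (edgeR adjusted p = 0.0194), while ssa-miR-194b-5p, of a miRNA abundant in liver and gut, fell by 0.71 on the log2 scale with a standard error of 0.13 (0.00559). The median log2 fold change of the 6 was -0.07, against 0.03 for all tested names, and 2 of the 6 were above 0. At 0.27% 1 of 5 rose, aca-miR-34b-5p itself, against 9.57% of all names, and the median was -0.11 against 0.03. Over all names at 0.54% edgeR called 1 of 8, ssa-miR-194b-5p, lower, where 11.8% of all 153 names were called lower. At 0.27% edgeR called 0 of 8, where 1.27% of all 158 names were called lower. No other comparison called any name of the list by edgeR. The smallest p belonged to aca-miR-34b-5p at 0.135% source oil, to ssa-miR-194b-5p at 1.25% slick oil (0.34 ± 0.20, edgeR adjusted p = 0.913), to ipu-miR-107b at 2.50% (1.17 ± 0.46, 0.656) and to ola-miR-194-5p at 5.00% (-0.28 ± 0.15, 0.356).

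Of the hypoxia-responsive list, which holds ola-miR-21 and the miR-210 names with miR-23, miR-24, miR-26, miR-27, miR-107 and miR-181 names, 3 of 14 tested rose at 0.54% source oil and 0 fell, where 17.6% of all names rose. They were ipu-miR-107b, ssa-miR-23b-5p at 0.28 ± 0.09 (edgeR adjusted p = 0.0405) and ola-miR-181a-5p at 0.28 ± 0.09 (0.0408). Over all names edgeR called 1 of 16, ssa-miR-23b-5p, higher, where 2.61% of all 153 names were called higher. The list's median was 0.26, against 0.03 for all tested names. At 5.00% slick oil 1 of 14 rose, against 2.75% of all names, and 0 of 14 were called over all names. It was efu-miR-27b at 0.58 ± 0.14 (edgeR adjusted p = 0.0464), with a list median of 0.23 against 0.01. Medians at 0.135% and 0.27% source oil were 0.22 and 0.23, against 0.01 and 0.03 for all tested names. There 13 of 14 and 12 of 13 names of the list were above 0, and none was called by edgeR. The share of all tested names above 0 was not counted. Names of the list share libraries and some share a miRNA number, so their signs are not independent. The smallest p there belonged to efu-miR-27b at 0.135% (0.44 ± 0.11, edgeR adjusted p = 0.0952) and ipu-miR-107b at 0.27% (0.58 ± 0.18, 0.0501). ola-miR-21 itself was called in none of the 6 comparisons. In slick oil the medians were 0.12 at 1.25% and -0.06 at 2.50%, against 0.02 and 0.07 for all tested names. The smallest p at these concentrations belonged to efu-miR-27b (0.59 ± 0.21, edgeR adjusted p = 0.751) and to ipu-miR-107b.

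Of 9 names of the injury and inflammation list (ola-miR-21 with miR-132, miR-146, miR-155, miR-221 and miR-222 names), 6 were tested at 0.54% source oil, where 0 rose and 2 fell, against 21.8% of all names that fell. aca-miR-132-5p, of a miRNA tied to neurons and inflammation in mammals, fell by 0.58 (standard error 0.10, edgeR adjusted p = 0.00559) and ssa-miR-222a-5p by 0.69 (0.18, adjusted p = 0.0185). The same names fell at 0.27%, by 0.42 (0.12, edgeR adjusted p = 0.0365) and 0.57 (0.17, adjusted p = 0.0379), where 13.9% of all names fell. The list's median was 0.06 at 0.54% and -0.03 at 0.27%, against 0.03 for all tested names at both. Over all names edgeR called 1 of 6 at 0.54%, aca-miR-132-5p, lower, where 11.8% of all 153 names were called lower. At 0.27% edgeR called 0 of 6, where 1.27% of all 158 names were called lower. No name of the list was called elsewhere over names counted in every library by edgeR. The smallest p there belonged to ssa-miR-222a-5p at 0.135% source oil (-0.38 ± 0.16, edgeR adjusted p = 0.208), to ola-miR-21 at 1.25% slick oil and to aca-miR-132-5p at 2.50% (-0.58 ± 0.29, 0.707) and 5.00% (-0.52 ± 0.16, 0.094). Over all names at 5.00% slick oil, ipu-miR-222a was called lower, being at 0 in every exposed library. Of all 149 names there, 2.01% were called lower.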

How the data were processed

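Small RNA of pooled whole larvae was sequenced in 24 libraries. The 6 count tables that the authors deposited hold raw counts per miRNA name, each for 3 exposed libraries and the 3 controls of that oil. The sources used here give neither the aligner nor the treatment of reads that match several names, which could be split between them. The authors also deposited DESeq2 tables (per the submitters' processing notes, no version) that hold, per the file headers, group mean signal, a deposited score for the difference of means, the authors' log2 fold change, p-value and adjusted p-value; these are quoted only where named.

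The members and lists were chosen with earlier results of these data known. Every column was matched by its label (0 unmatched). Counts were tested with edgeR 4.0.16 (R 4.3.3, limma 3.58.1), TMM scaling and the quasi-likelihood test, with Benjamini-Hochberg adjustment. Names needed at least 10 counts in at least 3 libraries and, for the values given first, at least 1 count in every library of the fit. The second condition was also chosen with earlier results of these data known. The reason was that zeros raised the biological coefficient of variation over all names to 124% to 139%, against 11.4% to 36.7%. Each concentration was set against the controls of its table, without covariates. Standard errors are the log2 fold change over the square root of F. Slopes used the 12 libraries of an oil, and differences between oils used all 24, over names with equal control 1 counts in the tables of an oil. For ola-miR-21 in slick libraries, where control 1 differs by table, control 1 of the lowest concentration was used, a choice made after seeing the data. Fits were tested on simulated data. Alternatives were library totals, RLE scaling, DESeq2 1.42.0, no filter, at least 50 counts, a replicate block, rank of concentration and leaving out each library. Depth ran from 2820454 to 9741582 counts per library, and 3 counts were taken as the limit of a 0.

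The named miRNAs are the 3 members, other names of their numbers, the 3 most alike names by r for each member, and called or lowest-p names of each list. Replicate numbers are shared in the labels. At 2.50% slick oil the same-numbered libraries deviated together (r = 0.388 to 0.603), so the numbers were taken to pair them there. Paired values are given beside the unpaired ones, and the block changed no member's call in that comparison. In the other comparisons at least 1 pair had r under 0.1.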

Additional observations from a re-analysis of the deposited data

How the results depend on the processing

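The members' values were recomputed under the alternatives, and 288 kept their direction and side of the threshold, 12 lost a call, 9 gained one and 8 changed sign. All changes of sign concern values that pass in no setting. They are aca-miR-34b-5p in slick oil, where leaving out 1 library gave -0.044 to 0.59 at 1.25%, -0.17 to 0.40 at 5.00% and -0.13 to 0.34 for the slope, which was -0.32 without controls. They are also ola-miR-21 at 2.50% slick oil (0.021 with library totals, 0.012 over all names, -0.12 to 0.010 without 1 library) and its slick minus source response at the highest concentration (-0.24 with library totals). The cause was not tested.

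For aca-miR-34b-5p at 0.27% source oil the value was 0.77 with the replicate block (edgeR adjusted p = 0.0904), 0.79 over all names and 0.66 to 0.94 without 1 library, where 2 of 6 fits called it. At 0.54% it was 0.98 over all names, without a call, and was called in the 14 other settings. At 0.135% it was called by DESeq2 (0.44) and in 1 of 6 fits without 1 library (0.35 to 0.60). Its source slope was 0.73 without controls, uncalled, and its difference between 0.54% and 0.135% was 0.60 over all names, uncalled. ola-miR-21 at 0.54% source oil was called with library totals (0.49), at least 50 counts (0.28), the replicate block (0.26, adjusted p = 0.0223), 12 libraries (0.31, and 0.31 with control 1 of the lowest table), and in 1 of 6 fits without 1 library (0.18 to 0.37). Its source slope was 0.28 without controls and 0.23 to 0.36 without 1 library, and its difference between 0.54% and 0.135% was 0.42 with library totals.

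Counts of called names moved more. At 0.54% source oil 47 became 22 over all names and 26 to 50 without 1 library. At 0.27% 27 became 1 with the replicate block, 2 over all names and 1 to 43 without 1 library. At 0.135% 0 became 13 with DESeq2, 1 with 12 libraries under either control 1, 2 over all names and 0 to 9 without 1 library. At 5.00% slick oil 6 became 3 with library totals, 12 with DESeq2, 1 with 12 libraries under either control 1, 3 over all names and 1 to 15 without 1 library. At 1.25% 0 became 1 with DESeq2, 2 with the block, 1 over all names and 0 to 2 without 1 library. In these comparisons at least 1 of the 3 same-numbered pairs had r under 0.1, and the cause was not tested. Counting alone gave aca-miR-34b-5p a coefficient of variation of 12.1% at 5.00% slick oil, against 8.17% in the slick controls.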
